A study of Mus musculus with 3 samples.

Results

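Cathepsins are the proteases of the lysosome, and cystatins are the proteins that inhibit them. The messenger RNA of 8 cathepsin genes (Ctss, Ctsl, Ctsb, Ctsk, Ctsh, Ctsc, Ctsz and Ctsd) and 2 cystatin genes (Cst3 and Cst7) was followed in mouse dendritic cells. These 10 genes were taken by name from a table of 34590 gene symbols, and each had a single row in it. The cells were primary bone marrow-derived dendritic cells, that is, antigen-presenting cells grown from femur and tibia marrow with granulocyte-macrophage colony-stimulating factor. One library was made from cells treated for 48 h with recombinant articulatin B chain (rATB) at 800 ng/ml, 1 from cells given buffer, and 1 from cells left untreated (control). Articulatin is a mistletoe protein made of a ribosome-inactivating chain and a carbohydrate-binding B chain. The buffer library carries a dose label of 1 ng/ml, whose meaning is unclear. The number of mice or cultures behind each library is not given in the sources used here. All 3 cultures had the same growth factor. Non-adherent cells were collected, and such cultures commonly also hold cells that resemble macrophages.

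The 3 libraries held 15203139 reads for rATB, 16105080 for buffer and 17776492 for the control. Levels are in units, which are reads scaled by the authors' factor for each library and expressed per 1000000 reads of the control library. Each ratio is followed by its exact conditional 95% interval, which covers counting error only. With 1 library a group there was no test and no estimate of the spread between cultures. The difference between buffer and control is the only view of how 2 cultures without rATB differ, so it is given for each gene. In bulk RNA, fewer cells of a type and less RNA per cell cannot be told apart.

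Cysteine cathepsins such as S, L, B, H, K, C and Z are made as inactive precursors and become active in the acid of the endosome and lysosome. Cathepsin D is an aspartic protease of the same compartment. In dendritic cells these enzymes cut up ingested proteins and degrade the invariant chain (Cd74), which frees class II molecules to bind peptide. Cystatin C (Cst3) is a secreted inhibitor of cysteine cathepsins, and cystatin F (Cst7) is a leukocyte inhibitor that reaches lysosomes and acts on cathepsin C.

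In the rATB library the main lysosomal cathepsins were higher than in both other libraries, while cystatin C and cathepsin Z stayed close to them and cathepsin C was lower. Of the 10 genes, 7 were highest in the rATB library, namely Ctss, Ctsl, Ctsb, Ctsk, Ctsh, Ctsd and Cst7. In all 7 the counting intervals left out 1 against both other libraries. Among the 12559 genes that averaged 1 unit or more, 33.2% were highest in the rATB library, and 11.4% were so beyond counting error. Among the 2035 genes that averaged 100 units or more, which include 8 of the 10 genes, the second share was 22%, and 5 of those 8 were so. Only Ctsc of the 10 was lowest in the rATB library, again beyond counting error (background 44.1%, and 15.4% beyond counting error). For the 2035 genes of at least 100 units the last share was 30.1%, and 1 of the 8 members was so.

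The sum over the 8 cathepsins was 26439 units under rATB, 18446 under buffer and 20947 in the control. That sum under rATB was 1.43 times the buffer sum (interval 1.43 to 1.44) and 1.26 times the control sum (interval 1.26 to 1.27). Cathepsin reads made up 2.74% of the rATB library, 1.96% of the buffer library and 2.09% of the control library. Of the net difference from buffer, Ctsd contributed 42.9%, Ctss 20.9%, Ctsl 20.8% and Ctsb 12.0%. The sum over the 2 cystatins was 2354 units under rATB, 2234 under buffer and 2481 in the control. Reads of the 7 cysteine cathepsins per read of Cst3 were 7.02 under rATB, 5.33 under buffer and 5.27 in the control.

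**Figure D1:**
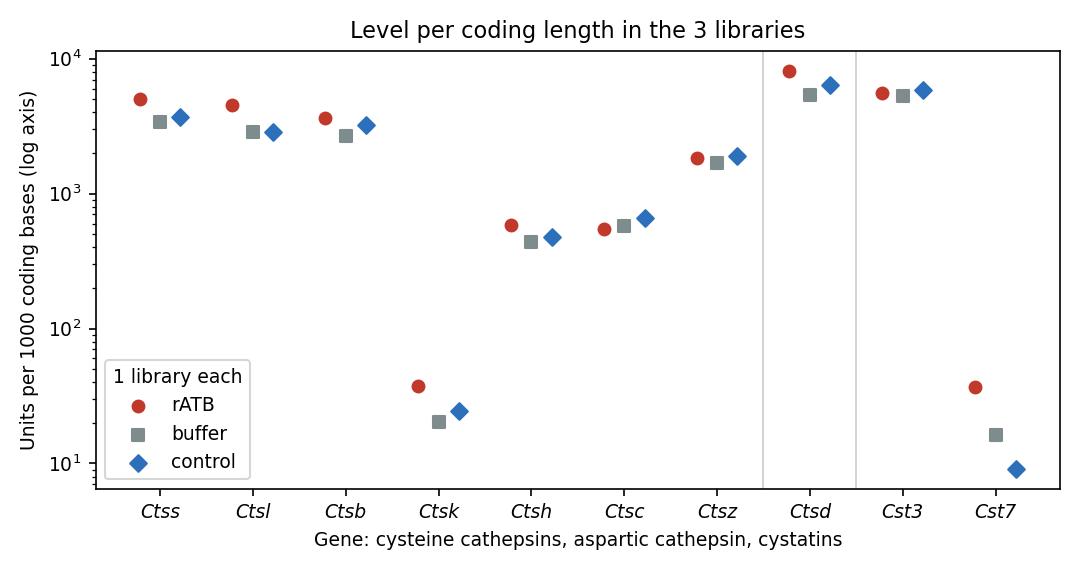
Level of each gene per 1000 coding bases (log axis) in the rATB, buffer and control libraries, 1 point per library, for cysteine cathepsins, the aspartic cathepsin and the cystatins. Ctsd stood at 8144 under rATB, against 5356 under buffer and 6429 in the control, and Ctsk and Cst7 lay far below the other 8 genes.

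Levels of different genes were compared per length, as units per 1000 coding bases of the longest annotated coding sequence. On this scale Ctsd was first in the rATB library at 8144, followed by Cst3 at 5567, Ctss at 5035, Ctsl at 4497, Ctsb at 3634 and Ctsz at 1842. Ctsh at 587 and Ctsc at 545 came next, and Ctsk at 37.8 and Cst7 at 36.8 were the lowest. On coding length the order differed between libraries at 2 places. Ctsl at 4497 was above Ctsb at 3634 under rATB, as under buffer at 2839 against 2689, whereas Ctsb at 3197 was above Ctsl at 2846 in the control. On the same length Ctsh was above Ctsc under rATB but not in the other libraries, since Ctsc at 573 exceeded Ctsh at 440.0 under buffer and 659 exceeded 477 in the control. Ctsd and Cst3 lay almost level under buffer, at 5356 and 5301, and wide apart under rATB. Neither turn was seen with exon length in place of coding length, where Ctsb was above Ctsl and Ctsh above Ctsc in all 3 libraries. On exon length the turn was instead between Ctss and Cst3, at 3793 and 2719 units per 1000 bases under rATB, 2563 and 2589 under buffer, and 2781 and 2880 in the control.

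The stretches of 250 bases before the annotated start are shown for 4 of the genes, which differ in level and in response. Ctsc, the only member lowest under rATB, is not among them. Ctsd and Ctss were high under rATB and abundant, Cst7 was high under rATB and scarce, and Cst3 was nearly level. The sequences are from RefSeq on build GRCm38.p6, where 8 of the 10 genes had an entry (not Ctsb and Ctsh), and they run 5′ to 3′ toward the gene. They lie at chr7:142387828-142388077, minus strand, for Ctsd, at chr3:95526536-95526785, plus strand, for Ctss, at chr2:150570165-150570414, plus strand, for Cst7, and at chr2:148875513-148875762, minus strand, for Cst3. Capitals mark matches to the short motifs described next.
Ctsd: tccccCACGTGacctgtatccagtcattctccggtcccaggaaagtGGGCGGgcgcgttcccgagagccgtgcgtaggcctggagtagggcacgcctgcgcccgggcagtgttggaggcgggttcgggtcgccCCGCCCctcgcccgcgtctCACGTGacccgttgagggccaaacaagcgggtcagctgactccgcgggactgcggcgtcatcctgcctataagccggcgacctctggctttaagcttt
Ctss: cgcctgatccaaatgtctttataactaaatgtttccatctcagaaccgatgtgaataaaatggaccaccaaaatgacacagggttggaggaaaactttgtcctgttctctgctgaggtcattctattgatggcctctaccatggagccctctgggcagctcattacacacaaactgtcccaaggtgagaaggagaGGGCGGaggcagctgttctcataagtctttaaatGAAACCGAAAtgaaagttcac
Cst7: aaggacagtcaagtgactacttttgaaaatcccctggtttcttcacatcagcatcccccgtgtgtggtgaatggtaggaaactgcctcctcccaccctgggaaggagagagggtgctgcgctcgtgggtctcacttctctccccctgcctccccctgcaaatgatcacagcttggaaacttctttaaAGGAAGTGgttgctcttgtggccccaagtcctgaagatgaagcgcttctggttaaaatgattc
Cst3: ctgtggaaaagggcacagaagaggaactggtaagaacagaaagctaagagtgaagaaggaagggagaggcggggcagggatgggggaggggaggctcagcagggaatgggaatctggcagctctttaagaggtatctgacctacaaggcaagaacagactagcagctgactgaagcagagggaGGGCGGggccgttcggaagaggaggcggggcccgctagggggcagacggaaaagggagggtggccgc

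The motifs were searched on both strands and were chosen with these sequences in view. In these 4 windows the marked matches do not overlap. The E-box CACGTG, the core read by the lysosomal gene regulators Tfeb, Tfe3 and Mitf, stood at 2 places in the Ctsd window, 245 and 98 bases before the start. Of the 8 genes with a window, Ctsd and Ctsl held it, and 6.02% of all 32851 windows did. The interferon response type motif, GAAA followed by 2 bases of any kind and GAAA again, read by interferon regulatory factors such as Irf8, stood 21 bases before the Ctss start, and 2.98% of all windows held it. The motif AGGAAGTG, of the type read by PU.1, stood 63 bases before the Cst7 start, in 3.14% of all windows. The GC box GGGCGG (reverse CCGCCC) was in the windows of Ctss, Ctsc, Ctsd, Ctsz and Cst3 and in 32.7% of all windows. The AP-1 type motif TGANTCA was in 0 of the 8 and in 6.75% of all windows. A match describes letters in the window and says nothing of binding.

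Cathepsin S (Ctss, ENSMUSG00000038642) is the main enzyme that trims the invariant chain in dendritic cells. Its level was 5150.4 units under rATB, 3481 under buffer and 3777 in the control. The rATB level was 1.48 times that of buffer (interval 1.464 to 1.496) and 1.36 times that of the control (interval 1.35 to 1.38). Buffer lay slightly below the control, at a ratio of 0.922 (interval 0.911 to 0.932). Of the 2035 genes of at least 100 units, 2.90% were as far above buffer as Ctss or farther.

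Cathepsin L (Ctsl, ENSMUSG00000021477) is a broad lysosomal endopeptidase that processes the invariant chain in thymic epithelium. It stood at 4506 units under rATB, 2845 under buffer and 2852 in the control. The rATB level was 1.58 times that of buffer (interval 1.57 to 1.60) and 1.58 times that of the control (interval 1.56 to 1.60). Ctsl was the member whose level hardly differed between the libraries without rATB, at a buffer to control ratio of 0.998 (interval 0.985 to 1.01), which became 1.03 to 1.06 under 3 other scalings. Only 2.01% of genes of at least 100 units were as far above buffer, and 1.72% as far above the control.

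Cathepsin B (Ctsb, ENSMUSG00000021939), which also trims peptides from their carboxyl end, was at 3695 units under rATB, 2735 under buffer and 3251 in the control. Its ratio was 1.35 to buffer (interval 1.33 to 1.37) and 1.14 to the control (interval 1.12 to 1.15). Under the authors' scaling, buffer was below the control by more than the rATB library was above it, at a ratio of 0.841 (interval 0.831 to 0.851). Under 3 other scalings this turned, with ratios to the control of 0.872 to 0.892 for buffer and 1.18 for rATB. Fdft1 overlaps Ctsb in the annotation, and at 28.0 units under rATB, 33.4 under buffer and 37.6 in the control it was small beside Ctsb. Ctsl reads per Ctsb read, a ratio free of the scaling, were 1.22 under rATB, 1.04 under buffer and 0.877 in the control.

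Cathepsin H (Ctsh, ENSMUSG00000032359), an aminopeptidase, was at 586 units under rATB, 440 under buffer and 476 in the control. Its ratio was 1.33 to buffer (interval 1.29 to 1.37) and 1.23 to the control (interval 1.19 to 1.27). The buffer level was 0.923 of the control level (interval 0.895 to 0.952).

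Cathepsin K (Ctsk, ENSMUSG00000028111) degrades collagen and elastin and is best known from osteoclasts. It was a minor transcript here, with 587 reads under rATB, 343 under buffer and 432 in the control, or 37.3, 20.1 and 24.3 units in the same order. The rATB level was 1.86 times that of buffer (interval 1.62 to 2.13) and 1.54 times that of the control (interval 1.35 to 1.74). Ctsk and Ctss are neighbouring coding genes on chromosome 3 with no coding gene between them. Both were highest under rATB, and Ctss reads per Ctsk read numbered 138 under rATB, 173 under buffer and 155 in the control. Acp5, an osteoclast marker, was at 638 units under rATB, 329 under buffer and 376 in the control. The 6 osteoclast markers summed to 1708 units under rATB, 1401 under buffer and 1398 in the control, a difference from buffer of about the size of that in Acp5 alone. The markers did not move together, since Acp5 and Atp6v0d2 were highest under rATB beyond counting error while the other 3 past the filter were below buffer. Mmp9 was lowest under rATB beyond counting error, at 476 units against 527 under buffer and 501 in the control. Dcstamp was at 85.7 units under rATB, 92.9 under buffer and 81.8 in the control, and Ocstamp had 37, 70 and 45 reads in the same order. Calcr had 1, 0 and 0 reads, and the part of such cells in the Ctsk values was not tested.

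Cathepsin D (Ctsd, ENSMUSG00000007891), the aspartic protease, took 1.04% of all reads under rATB, 0.699% under buffer and 0.791% in the control. Its level was 10017 units under rATB, 6588 under buffer and 7908 in the control. The ratio was 1.52 to buffer (interval 1.51 to 1.53) and 1.27 to the control (interval 1.26 to 1.28). Buffer was below the control, at 0.833 (interval 0.827 to 0.840), so the choice of comparison library changed the size of the difference but not its direction. Of genes of at least 100 units, 2.56% were as far above buffer and 6.44% as far above the control.

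Cathepsin Z (Ctsz, ENSMUSG00000016256), a carboxypeptidase also called cathepsin X, was at 1691 units under rATB, 1544 under buffer and 1746 in the control. The rATB level thus lay between the other libraries, 1.10 times buffer (interval 1.08 to 1.11) and 0.969 of the control (interval 0.953 to 0.985). The ratio to the control turned to between 1.003 and 1.007 under 3 other scalings. The gene Nelfcd overlaps Ctsz, and its 24.5 units under rATB, 21.1 under buffer and 23.8 in the control were small beside it.

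Cathepsin C (Ctsc, ENSMUSG00000030560), or dipeptidyl peptidase I, activates the serine proteases of leukocyte granules. It was at 756 units under rATB, 794 under buffer and 914 in the control. The ratio was 0.952 to buffer (interval 0.928 to 0.975) and 0.827 to the control (interval 0.808 to 0.847). Buffer was below the control as well, at 0.869 (interval 0.850 to 0.889), a larger step than that between rATB and buffer.

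Cystatin C (Cst3, ENSMUSG00000027447) was at 2338 units under rATB, 2226 under buffer and 2477 in the control. The ratio was 1.05 to buffer (interval 1.04 to 1.07) and 0.944 to the control (interval 0.931 to 0.957), so the rATB library lay between the others. Set against Cst3 read for read, a measure that no scaling can change, Ctsl was 1.51 times higher under rATB than under buffer (95% log-scale interval 1.48 to 1.54). By the same measure Ctsd was 1.45 times higher (interval 1.42 to 1.47) and Ctss 1.41 times (interval 1.38 to 1.43). Ctsz was 1.04 times higher (interval 1.02 to 1.07) and Ctsc 0.906 of its buffer value (interval 0.881 to 0.932).

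Cystatin F (Cst7, ENSMUSG00000068129) had the largest ratio of the 10 genes and rested on the fewest reads, 250 under rATB, 120 under buffer and 70 in the control. Its level was 15.9 units under rATB, 7.03 under buffer and 3.94 in the control. The rATB level was 2.26 times that of buffer (interval 1.81 to 2.84) and 4.03 times that of the control (interval 3.08 to 5.34). The libraries without rATB also differed, buffer being 1.78 times the control (interval 1.32 to 2.43). Under the authors' scaling Cst7 was the 1 member higher in buffer than in the control beyond counting error (background 5.61%), and under 3 other scalings Ctsl was so too. For each read of Cst7 there were 47.6 reads of Ctsc, its known target, under rATB, 113 under buffer and 232 in the control.

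**Figure D2:**
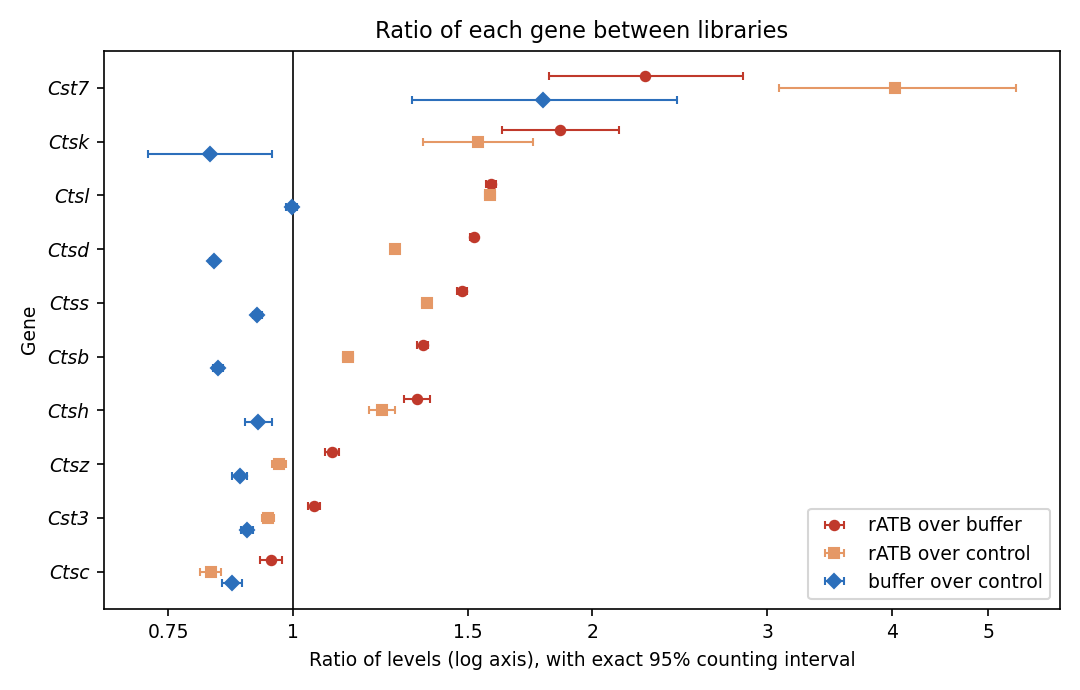
Ratio of levels between libraries (log axis) for each gene, rATB over buffer (circles), rATB over control (squares) and buffer over control (diamonds), with exact 95% counting intervals. Cst7 has the largest ratios and the widest intervals, 2.26 to buffer and 4.03 to the control, and 8 of the 10 diamonds have their whole interval below 1 (6 when scaled by total reads).

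Differences over all genes used log2(units + 1), and a gene was called where this differed by at least 1, a 2-fold change. By that rule Cst7 alone of the 10 was higher under rATB than under buffer, by 1.07, against a background of 0.9% of 12559 genes. It alone was higher than the control, by 1.77 (background 0.948%). None of the 10 was called lower in either comparison (background 0.669% against buffer and 0.884% against the control), and none was called between buffer and control (background 0% higher and 0.0557% lower). At a difference of 1.5-fold, 4 of the 10 were higher than buffer (Cst7, Ctsk, Ctsl and Ctsd, background 3.26%) and 3 higher than the control (Cst7, Ctsl and Ctsk, background 3.08%). Within genes of at least 100 units, 2 of the 8 such members were higher than buffer at that size (Ctsl and Ctsd, background 2.75%) and 1 was higher than the control (Ctsl, background 2.16%). At that size 1 of the 10, Cst7, was higher in buffer than in the control (background 0.342%), and none was lower in any comparison (background 3.16% between rATB and buffer, 3.87% between rATB and control and 0.741% between buffer and control). Ctss, at 0.57, lay just under that limit against buffer, where 1.5-fold is 0.58.

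The 10 genes had a median difference of 0.50 between rATB and buffer, where all genes past the filter had -0.00. Between rATB and control the median was 0.32 (all genes -0.06), and between buffer and control it was -0.17 (all genes -0.05). Both rATB comparisons share the rATB library, so they are not separate evidence. For genes of at least 100 units the differences had a standard deviation across genes of 0.29 between rATB and buffer, 0.31 between rATB and control and 0.12 between buffer and control. Of the 10 genes, 8 were lower in buffer than in the control beyond counting error, where 21.9% of all genes past the filter were, and Ctsl and Cst7 were the others. Scaled by total reads the count was 6, as the intervals of Ctsh and Ctsk then held 1. The share of 21.9% includes genes with few reads, whose intervals are wider. No such share was taken for genes of at least 100 units. By direction alone, 9 of the 10 were below the control, where 63.5% of all genes past the filter were.

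**Figure D3:**
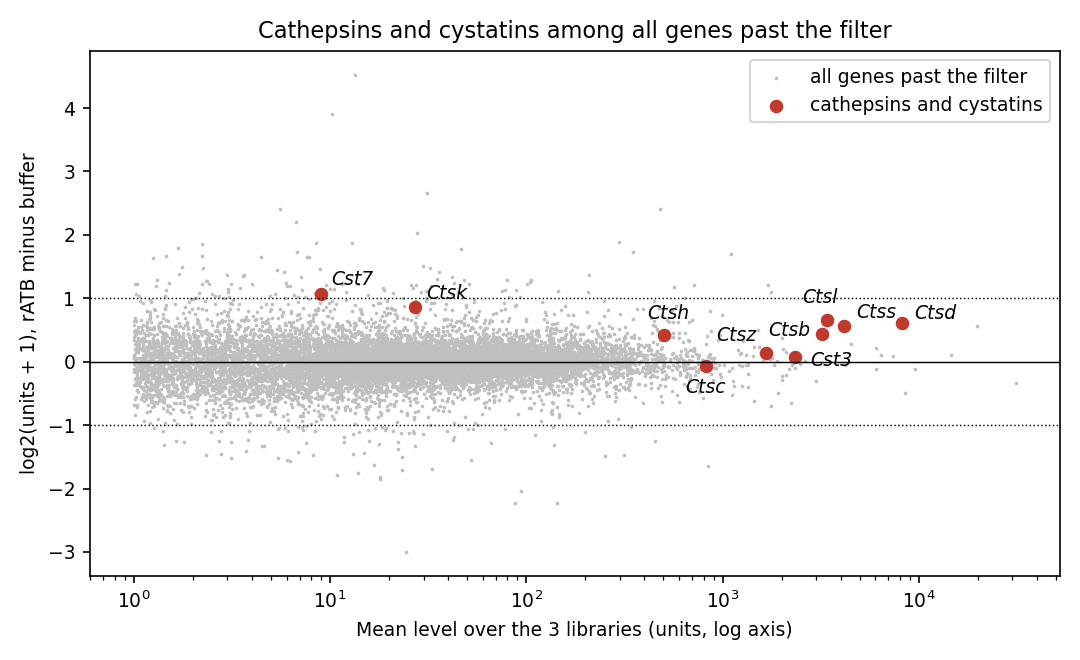
Difference in log2(units + 1) between the rATB and buffer libraries against the mean level over the 3 libraries (log axis), for 12559 genes (grey) and the 10 cathepsin and cystatin genes (red). Dotted lines mark a difference of 1 and -1, which Cst7 alone of the 10 passed, while Ctsl, Ctss, Ctsb and Ctsd lie above 0 among the most abundant genes.

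The remaining cathepsin genes did not all go the same way. Of 15 listed, 10 had 0 reads in every library, among them Ctsg and the placental genes, and 4 passed the filter. Ctsa, a lysosomal carboxypeptidase, was at 1037 units under rATB, 814 under buffer and 994 in the control. Ctse, an aspartic protease of endosomes, was lower under rATB, at 31.7 units against 47.7 under buffer and 64.5 in the control. Its difference from the control reached the 2-fold rule, with a rATB to control ratio of 0.492 and a rATB to buffer ratio of 0.665 (interval 0.593 to 0.744). Ctso, a cysteine cathepsin, stood at 33.7 units under rATB, 39.2 under buffer and 39.4 in the control.

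Among other inhibitors, the stefin Cstb was level, at 300.0 units under rATB, 289 under buffer and 279 in the control. Of the 20 other cystatin and stefin genes in the table, Cstb included, 10 had 0 reads in every library and 5 passed the filter. The stefin genes Gm5483, Stfa3, Stfa2l1 and BC100530 are near-identical copies, so their single values are uncertain. Gm5483 was at 26.8 units under rATB, 27.8 under buffer and 23.2 in the control, Stfa3 had 41, 52 and 39 reads, BC100530 had 15, 38 and 52 reads, and Stfa2l1 had 22, 39 and 51 reads in the same order. Of 7 further inhibitors past the filter, 5 (4 serpins and Ctla2b) were highest under rATB (background 33.2%), 3 of them beyond counting error (background 11.4%). Serpinb6b was at 77.5 units under rATB, 47.3 under buffer and 42.4 in the control (1.64 times buffer and 1.83 times the control). Serpinb9, an inhibitor of granzyme B, was at 88.2, 69.7 and 59.6 units, and Serpinb6a at 145, 131 and 122 units, in the same order. Serpinb1a, an inhibitor of neutrophil serine proteases, rested on 77 reads under rATB, 64 under buffer and 33 in the control. Serpina3g and Serpinb8 did not share this order. Serpina3g was at 18.5 units under rATB, 24.5 under buffer and 20.4 in the control, and Serpinb8 at 45.1, 45.1 and 53.8.

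The class II pathway that these proteases serve went the other way. Of its 12 genes, 9 were lowest under rATB beyond counting error (background 15.4%) and 1 was highest (background 11.4%), and the median difference was -0.47 from buffer and -0.74 from the control. Of the 9 genes of the list that averaged 100 units or more, 8 were lowest beyond counting error, where 30.1% of all 2035 such genes were. The invariant chain gene Cd74 was at 6059 units under rATB, 8533 under buffer and 10811 in the control. The rATB level was 0.710 of that of buffer (interval 0.704 to 0.716). Ctss reads per Cd74 read were 0.850 under rATB, 0.408 under buffer and 0.349 in the control. This ratio of messenger RNA under rATB was 2.08 times that under buffer (95% log-scale interval 2.06 to 2.11). Protein and enzyme activity were not measured in these data. The member that was highest under rATB was Lgmn, a lysosomal endopeptidase that helps mature cathepsins, at 548 units under rATB, 352 under buffer and 440 in the control. That is 1.56 times the buffer level (interval 1.51 to 1.61) and 1.24 times the control level (interval 1.21 to 1.28). H2-Aa and H2-Eb1, class II chains, were at 1402 and 977 units under rATB, 1979 and 1497 under buffer, and 2387 and 1873 in the control. Ciita, the class II regulator, was at 106 units under rATB, 171 under buffer and 214 in the control. In this list too the buffer library lay below the control, at a median of -0.31.

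Of 12 genes of lysosomal sorting and membrane, 2 were highest (background 11.4%) and 2 lowest (background 15.4%) under rATB beyond counting error. For genes of at least 100 units these backgrounds were 22% and 30.1%, so the counts were not far from those of all genes. The list had a median difference of 0.02 against buffer and -0.02 against the control. Psap, the saposin precursor, was at 14244 units under rATB, 13225 under buffer and 16127 in the control. Lamp1 and Lamp2, the main membrane proteins of the lysosome, were at 1813 and 677 units under rATB, 1799 and 662 under buffer, and 2077 and 679 in the control. M6pr, a receptor that carries cathepsins to the lysosome, was at 344 units under rATB, 349 under buffer and 362 in the control. The 2 highest were Cd63, at 117 units under rATB, 88.1 under buffer and 85.0 in the control, and Scarb2, at 247, 209 and 216 units in the same order. The 2 lowest were Sort1, at 190 units under rATB, 201 under buffer and 222 in the control, and Nagpa, at 62.3, 70.8 and 79.9 units in the same order. Cd68 was at 515 units under rATB, 406 under buffer and 515 in the control.

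**Figure D4:**
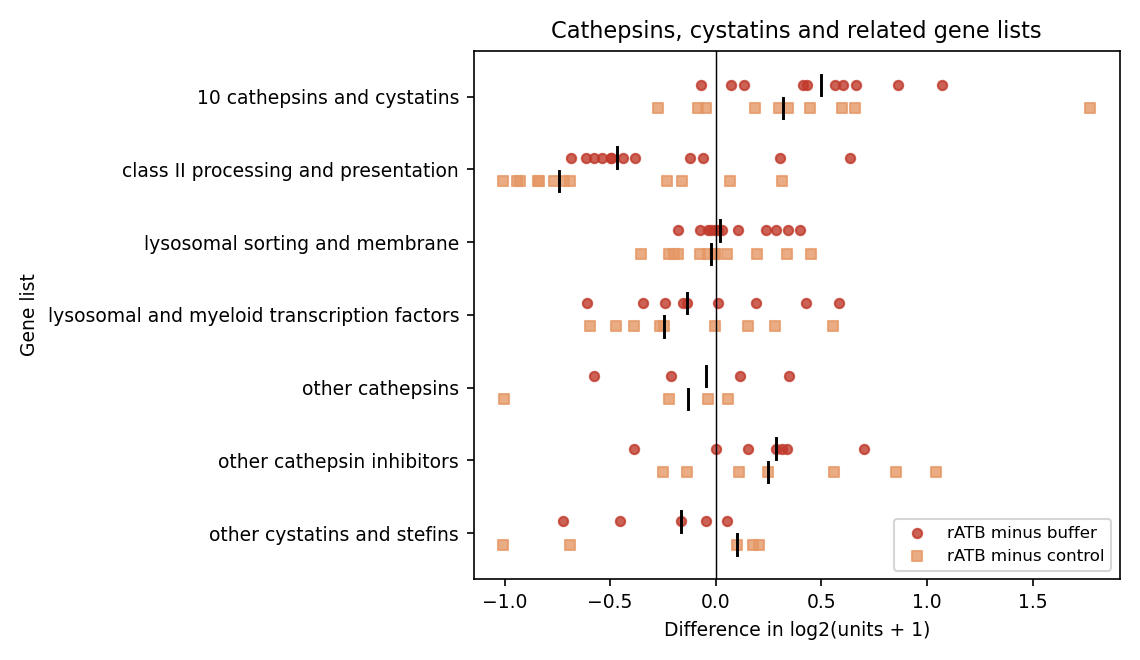
Difference in log2(units + 1) of each gene past the filter for the 10 cathepsin and cystatin genes and 6 related lists, rATB minus buffer (circles) and rATB minus control (squares), with black bars at the medians. The 10 genes have medians of 0.50 and 0.32, and the class II list has medians of -0.47 and -0.74.

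Regulators of lysosomal and myeloid genes were split. Beyond counting error, 3 of 9 were highest under rATB (background 11.4%) and 5 lowest (background 15.4%). Tfeb, Tfe3 and Mitf, activators of lysosomal genes, were lower, at 32.9, 124 and 47.7 units under rATB against 42.1, 138 and 73.4 under buffer and 46.1, 147 and 72.6 in the control. Spi1, listed as Sfpi1 and encoding PU.1, was at 266 units under rATB, 315 under buffer and 348 in the control. Irf8, a factor of dendritic cells and monocytes, was higher, at 566 units under rATB, 378 under buffer and 384 in the control. That is 1.498 times the buffer level (interval 1.45 to 1.55) and 1.47 times the control level (interval 1.43 to 1.52). Any link between these factors and the cathepsin values was not tested. Irf4 was at 307 units under rATB, 269 under buffer and 277 in the control, and Cebpb was the last of the 3 higher factors, at 101 units against 75.004 under buffer and 83.2 in the control.

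The granule serine proteases that cathepsin C activates were almost absent. Of 9 listed, 6 had 0 reads in every library, which allows up to 0.191 units under rATB, 0.176 under buffer and 0.169 in the control, the level of 3 reads. Prtn3 passed the filter, with 93 reads under rATB, 58 under buffer and 56 in the control. Among 9 substrates and partners of secreted cathepsins, Fn1, which encodes fibronectin, was nearly level at 6651 units under rATB, 6210 under buffer and 6507 in the control. Il33 had 34 reads under rATB, 14 under buffer and 9 in the control. The endosomal receptors Tlr9 and Tlr7, whose proteins cathepsins cut into their active form, were at 33.1 and 77.5 units under rATB, 37.2 and 72.3 under buffer, and 49.4 and 81.4 in the control.

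Genes whose pattern was most like that of the extremes were sought among those of at least 100 units, by Euclidean distance in the log2 ratios of rATB and of buffer to the control over 3 libraries. Closest to Cst7 were Ppbp, Spp1 and Ccl5, at distances of 0.44, 0.52 and 0.87, so none was very near. Ppbp and Ccl5, which encode chemokines, were at 687 and 1062 units under rATB, 207 and 200.1 under buffer, and 154 and 171 in the control. Spp1, which encodes osteopontin, was at 2943 units under rATB, 1366 under buffer and 964 in the control. Closest to Ctsc were Mtap7d1, Slc43a2 and Emr1, at 0.0080, 0.010 and 0.013. Emr1, the F4/80 macrophage antigen, was at 432 units under rATB, 456 under buffer and 521 in the control.

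Marker genes of the cells were read beside these values. The dendritic cell markers Itgax, Ccr7 and Cd74 were abundant, at 981, 1252 and 6059 units under rATB, 1213, 723 and 8533 under buffer, and 1200.0, 621 and 10811 in the control. Of 9 dendritic cell markers past the filter, 3 were highest (background 11.4%) and 4 lowest (background 15.4%) under rATB beyond counting error. The 13 macrophage and monocyte markers summed to 4515 units under rATB, 5049 under buffer and 6332 in the control. Of the 12 past the filter, 3 were highest (background 11.4%) and 6 lowest (background 15.4%) under rATB beyond counting error. Most of the 12 averaged 100 units or more, where the backgrounds were 22% and 30.1%. C1qa, a complement gene of macrophages, was among the lowest, at 134 units under rATB, 258 under buffer and 386 in the control. The 3 highest were Mrc1, at 163, 140 and 132 units in the same order, Mertk, at 51.7, 43.4 and 44.2, and Marco, at 7.31, 4.80 and 3.99. Plasmacytoid dendritic cell markers summed to 201 units under rATB, 165 under buffer and 154 in the control, of which Bst2 made up 159, 129 and 111. Tcf4 was at 41.5, 33.8 and 41.1 units in the same order. Ccr9 was lowest under rATB beyond counting error, with 13, 35 and 33 reads, and Siglech had 0, 1 and 2 reads. The neutrophil markers summed to 44.2 units under rATB, 44.6 under buffer and 58.0 in the control. Mast cell and basophil markers summed to at most 40.3 units in any library, and eosinophil markers to at most 33.2. Of these sums, both in the control, Gata2 made up 40.2 and Siglec5 31.6 units, while Mcpt8, Fcer1a, Tpsb2 and Cma1 had 0 reads. Natural killer cell markers summed to at most 4.63 units, T cell markers to at most 4.95 and B cell markers to at most 0.890 in any library. Cd3e, Trac, Ms4a1 and Pax5 had 0 reads. By the 2-fold rule, only Cd209a and Ccr2 of all these markers were called against buffer, both lower (background 0.669%, and 0.9% higher). Against the control more were called. Flt3 and Ccr7 were higher (background 0.948%), and Cd209a, Ccr2, C1qa, C1qb, C1qc and Ngp were lower (background 0.884%). Cd209a, a dendritic cell marker, was at 8.20 units under rATB, 25.0 under buffer and 36.2 in the control. Ccr2, from the macrophage and monocyte list, was at 229, 544 and 590 units in the same order. The part of other cell types in the cathepsin values was not tested.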

How the data were processed

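RNA was sequenced from 3 libraries of mouse bone marrow-derived dendritic cells, 1 per group. Libraries came from a TruSeq RNA version 2 kit, per the labels' protocols, which does not mark strand. Reads were aligned with TopHat2 2.0.13, per the submitters' processing notes, which name build GRCh37, a human name beside mouse gene identifiers, so the build is unclear. No label or header states the read counter, the annotation or the scaling. The authors' table, with 37991 rows of genes, holds log2 values, per the file headers. Spreadsheet errors, 53.1% to 54.0% of each column, were read as log2 of 0. On the linear scale 100% of values were whole multiples of the smallest (tolerance 1e-06), so the deposited values were taken as counts times a factor of 1.13 (rATB), 1.04 (buffer) or 1 (control). One unit equals 15.7, 17.1 or 17.8 reads in the same order.

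With Python 3.11.15, numpy, pandas and scipy 1.17.1, rows sharing a symbol were summed (25 damaged symbols restored) and genes averaging 1 unit or more were kept. Ratios have exact conditional intervals, and ratios between genes have log-scale intervals. Coding lengths are from GENCODE M21, used in place of the planned protein lengths. The method was tested on simulated counts. The genes, lists and tests were chosen with earlier results of these data known. From each related list, the text names genes past the 2-fold rule and the 3 with most reads. M6pr, Lgmn, Cd63, Scarb2, Sort1, Nagpa, Cd68, Stfa2l1, Serpina3g, Serpinb8, Tfeb, Tfe3, Mitf, Cebpb, and single markers were chosen after their values were seen. Alternatives were other scalings, pseudocounts, filters, fold limits and lengths.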

Additional observations from a re-analysis of the deposited data

How the results depend on the processing

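The 10 genes had a median ratio of 1.42 for rATB over buffer, 1.25 for rATB over control and 0.892 for buffer over control. Scaling by total reads gave 1.38, 1.29 and 0.946. Scaling by median of ratios gave 1.30 for rATB over control and 0.925 for buffer over control, and scaling by upper quartile gave 1.30 and 0.927. Under these 3 scalings the Ctsz ratio of rATB over control was 1.003, 1.007 and 1.005, on the other side of 1, and those settings change only the factor between libraries. Ctsz then also became highest with rATB, which made 8 genes highest and 1 lowest, against 7 and 1. Counting only intervals that leave out 1, an alternative chosen after seeing the data, 7 were highest and 1 lowest under each of the 3. At 1.5-fold, 4, 3 and 1 of the 10 genes were called between rATB and buffer, rATB and control, and buffer and control, against 1, 1 and 0 at 2-fold, a rule that is wider by construction. Of the genes in related lists, cell markers left out, 0 were called against buffer, against 2 with a pseudocount of 0.1 and 8 at 1.5-fold. The shares of all genes called at these settings were 1.57%, 2.85% and 6.43% in the same order. The related lists held 4, 5, 7, 12, 12, 9, 1 and 7 genes past the filter. In the order per coding length, 4 of 10 genes kept their place with no length correction, and 6 with exon length, an alternative chosen after seeing the data. Filters and the choice of row per symbol changed none of these counts. No paired analysis was possible because each group had 1 library. Depth limits Cst7, with 70 to 250 reads, and Ctsk, with 343 to 587 reads.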
